A study of Rattus norvegicus with 48 samples.

Results

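Plasma samples taken 4 weeks after calvaria surgery were compared with those taken 1 week after surgery from the same animals, with every sample of both weeks included. This gave 24 of the 48 samples of the series, 12 from week 1 and 12 from week 4, and each of the 12 rats was sampled in both weeks. The rats were males, 12 weeks old at surgery. The study's methods name them as Sprague-Dawley rats, while its text elsewhere calls them Wistar rats. Each animal carried 1 round drilled defect of the skull roof that was left empty or filled with a collagen hydroxyapatite (CHA) scaffold. The scaffold was used alone, with plasmid DNA coding for BMP2 and miR-590-5p, or with extracellular vesicles of mesenchymal stromal cells (MSC-EVs). The rats were the 6 strong and the 6 weak regenerators of a larger set, picked by the bone volume measured in microcomputed tomography, and their treatments were not balanced between the groups. The treatment of each single rat was not mapped here, so the values below are averages over mixed treatments. The samples taken before surgery (baseline) and at week 8 did not enter the test and are given only as context. All rats had surgery, so healing between the weeks cannot be told apart from age or from repeated blood sampling under anesthesia.

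MicroRNAs (miRNAs) are short RNAs that guide silencing complexes to messenger RNAs, mostly by pairing of the seed, bases 2 to 8 from the 5′ end. They leave cells in vesicles, in protein complexes or upon damage, and those of blood cells make up most of the miRNAs in plasma. A small group called myomiRs, among them the miR-1, miR-133, miR-206, miR-208 and miR-499 families, is made almost only in skeletal and heart muscle, and its plasma level is known to rise with muscle injury and exercise. In a plasma sample, a larger release per cell, a larger number of releasing cells and a slower clearance cannot be told apart.

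The miRNAs on which the comparison turned were myomiRs. Their mature sequences are shown because several of them differ by a single base, which bears on how reads were assigned to them. The sequences were taken from RefSeq (rat build GRCr8), which held a sequence for 583 of the 645 miRNAs in the deposited counts, and the seed is in capitals.
miR-133a-3p: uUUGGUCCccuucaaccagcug
miR-133b-3p: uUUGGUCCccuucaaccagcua
miR-1-3p: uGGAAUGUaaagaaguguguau
miR-1b: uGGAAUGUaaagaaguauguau
miR-206-3p: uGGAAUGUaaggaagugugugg
miR-133a-5p: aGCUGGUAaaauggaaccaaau

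miR-133a-3p and miR-133b-3p share the seed UUGGUCC, and among the miRNAs in the table with a sequence these 2 were the ones that carried it. They differ by G22A, with positions counted from 1 at the 5′ end and the base of miR-133a-3p first. miR-1-3p, miR-1b and miR-206-3p share the seed GGAAUGU, which 3 miRNAs in the table carried. miR-1b differs from miR-1-3p by G17A, and miR-206-3p differs from miR-1-3p by A11G, A21G and U22G. miR-133a-5p comes from the other arm of the hairpin of miR-133a-3p and has a different seed. Mature miR-1-3p lies at chr18:2160339-2160360 and mature miR-133a-3p at chr18:2157886-2157907, both on the minus strand, with 2368 bases between the hairpins Mir1 and Mir133a1. Mature miR-206-3p (chr9:30590747-30590768) and miR-133b-3p (chr9:30594629-30594650) form a second pair on the plus strand, with 3801 bases between their hairpins. Mature miR-1b lies at chr3:187864736-187864757 on the plus strand. The sequence table held a single hairpin for miR-133a, and other hairpins of the family were not used here.

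Between week 1 and week 4, 4 miRNAs passed an adjusted p (FDR, Benjamini-Hochberg) of 0.05 and all 4 were higher at week 4: miR-133a-3p, miR-1b, miR-133b-3p and miR-1-3p. They were 0.646% of the 619 miRNAs tested with the quasi-likelihood method of edgeR, with the rat as a term. No miRNA passed as lower (0.0%). At an unadjusted p under 0.05, 31 miRNAs were higher (5.01%) and 15 were lower (2.42%). Most of the plasma profile moved little between the weeks. Of the 308 miRNAs with a mean of at least 10 RPM (reads scaled to 1000000 miRNA reads in each sample), 288 had a log2 fold change within 0.5 of 0, 157 had a positive value, and the median log2 fold change was 0.0035. A log2 fold change beyond 1 was seen for 5 of the 308, and these were the 4 called miRNAs and miR-133a-5p.

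**Figure D1:**
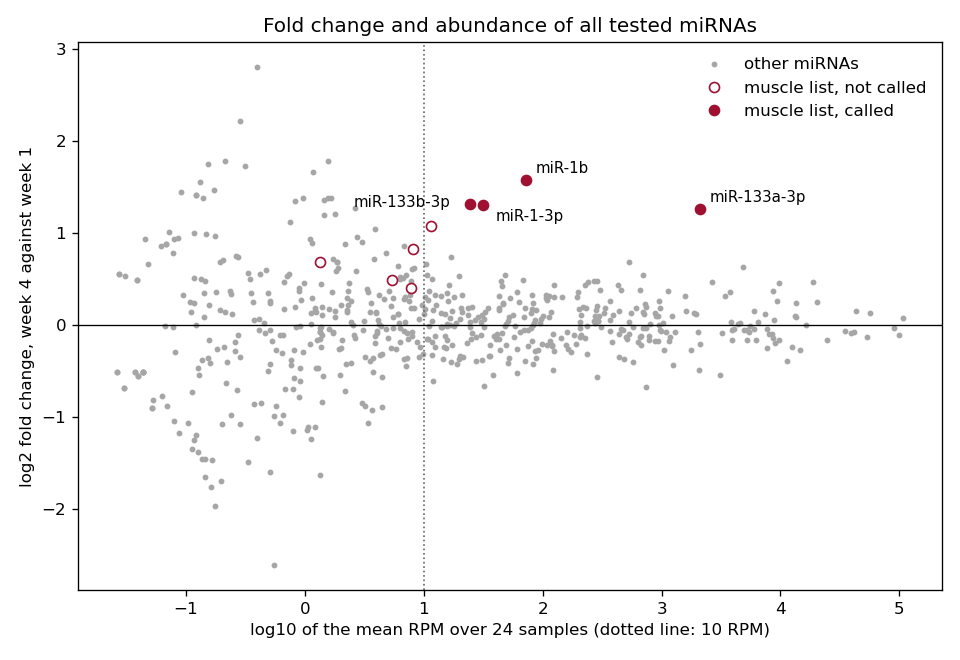
Log2 fold change of week 4 against week 1 (y axis) against the log10 of the mean RPM over 24 samples (x axis) for the 619 tested miRNAs, 1 point each. Filled red points are the 4 called miRNAs, which stand at log2 fold changes from 1.26 to 1.58, open red points are the other 5 members of the muscle list and grey points are all other miRNAs.

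miR-133a-3p, which represses transcription factors of muscle growth and the bone regulator Runx2, was the most abundant of them. Its level at week 1 was 341 RPM in the lowest rat, 1218 RPM at the median and 2474 RPM in the highest rat. At week 4 the lowest rat had 952 RPM, the median was 1906 RPM and the highest rat had 9270 RPM. It was higher at week 4 in 11 of 12 rats, the exception being rat 2 with 1740 RPM at week 1 and 1662 RPM at week 4. The weeks overlapped, and 5 of the 12 week 4 values lay above every week 1 value. The log2 fold change was 1.26 (SE 0.20, n = 12 rats), a 2.39-fold rise with an adjusted p of 0.000594 in edgeR. The steepest single rise was that of rat 3, from 341 to 4210 RPM, and the highest week 4 values were those of rats 21 (9270 RPM) and 17 (4537 RPM). Behind these levels stood 194 to 10018 reads per sample.

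miR-133b-3p, the paralogue that is co-expressed with miR-206-3p in skeletal muscle, was present at a far lower level. It ranged from 2.37 to 25.8 RPM at week 1 (median 13.3 RPM) and from 10.9 to 117 RPM at week 4 (median 21.4 RPM). It was higher in 11 of 12 rats, and rat 25 had 23.3 RPM at week 1 and 18.4 RPM at week 4. The log2 fold change was 1.32 (SE 0.28), with an adjusted p of 0.0126 in edgeR. This call rests on few reads, 160 over the 12 week 1 samples and 411 over the 12 week 4 samples. The other arm of the miR-133a hairpin, miR-133a-5p, ranged from 0 to 13.3 RPM at week 1 and from 3.5 to 37.9 RPM at week 4. It was higher in 9 of 12 rats and was not called, with a log2 fold change of 1.08 (SE 0.32) and an adjusted p of 0.264 in edgeR.

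miR-1b and miR-1-3p belong to the miR-1 family, which promotes differentiation of heart and skeletal muscle. miR-1b ranged from 4.32 to 73.8 RPM at week 1 (median 33.3 RPM) and from 32.4 to 386 RPM at week 4 (median 106 RPM). It had the largest log2 fold change of the 4 called miRNAs, 1.58 (SE 0.29), a 2.98-fold rise with an adjusted p of 0.0019 in edgeR. It was higher in 11 of 12 rats, and 7 week 4 values lay above every week 1 value. Rat 26 went the other way, with 61.3 RPM at week 1 and 32.4 RPM at week 4. miR-1-3p ranged from 0 to 38.9 RPM at week 1 (median 19.2 RPM) and from 9.24 to 160 RPM at week 4 (median 31.9 RPM). It was higher in 10 of 12 rats, lower in rats 17 and 26, and had a log2 fold change of 1.31 (SE 0.30) with an adjusted p of 0.0242 in edgeR. Its call also rests on few reads, 201 over the 12 week 1 samples and 484 over the 12 week 4 samples.

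**Figure D2:**
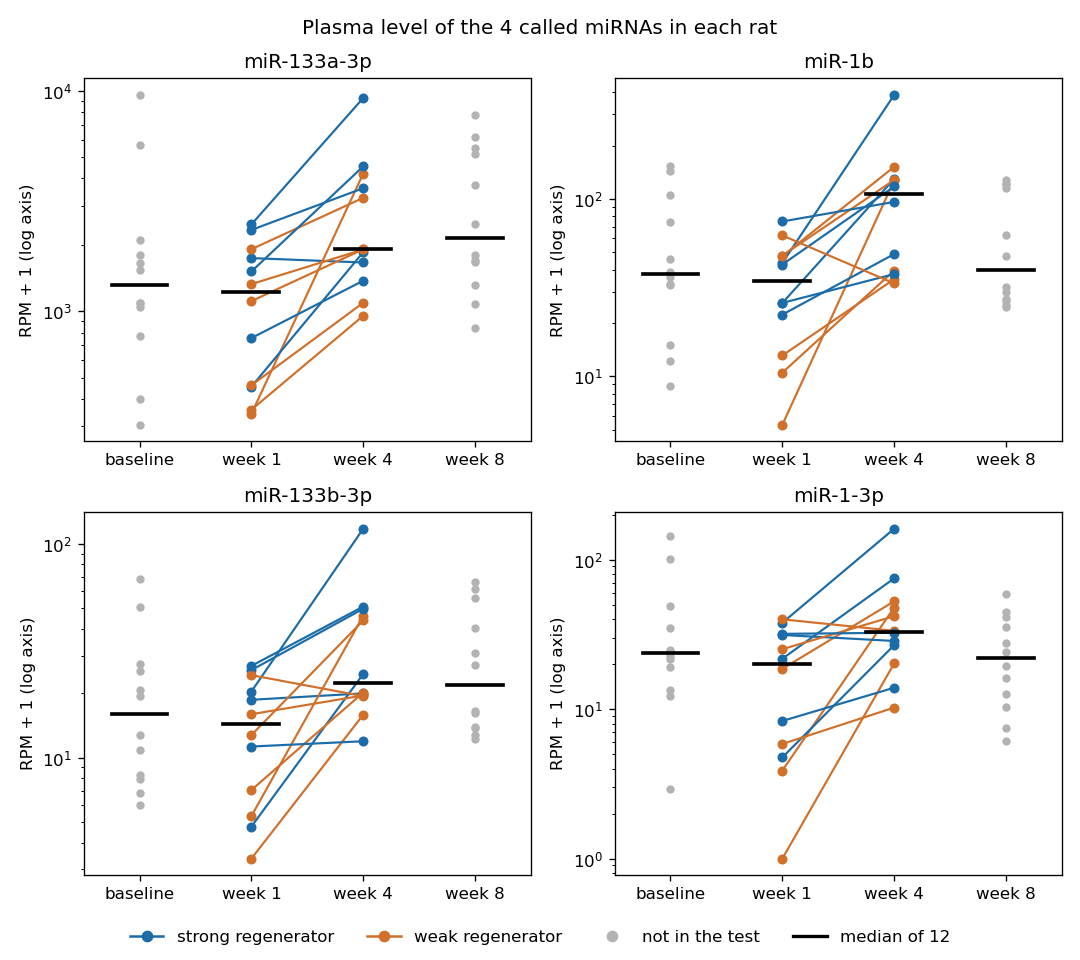
Level of the 4 called miRNAs in each rat, as RPM + 1 on a log axis, at baseline and at weeks 1, 4 and 8. Lines join week 1 and week 4 of the same rat (blue, 6 strong regenerators; orange, 6 weak regenerators), grey points are samples that did not enter the test and black bars are medians of 12 rats; most lines rise, and the points of weeks 1 and 4 overlap for all 4 miRNAs.

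The remaining members of the muscle list were near the limit of detection. miR-206-3p, the skeletal muscle member of the miR-1 seed family, had a median of 6.0 RPM at week 1 and 7.27 RPM at week 4 and was higher in 9 of 12 rats (log2 fold change 0.82, SE 0.36, adjusted p of 0.67 in edgeR). miR-499-5p, which is encoded in a myosin gene of slow and heart muscle, had medians of 6.59 and 8.83 RPM and a log2 fold change of 0.40 (SE 0.39). miR-208b-3p, from another slow myosin gene, had medians of 3.41 and 5.52 RPM and a log2 fold change of 0.48 (SE 0.42). miR-208a-3p, which is specific to heart muscle, had no read in 6 of the week 1 samples and in 5 of the week 4 samples, with 12 and 19 reads in all. All 9 members of the list had a positive log2 fold change, with a median of 1.1 against 0.0038 over all 619 miRNAs tested, 6 of the 9 had an unadjusted p under 0.05, and 4 were called. The list left out other tested arms of these hairpins, so its shared direction depends on which arms it holds. These were miR-133b-5p (0.27, SE 0.88), miR-208a-5p (0.35, SE 1.29) and miR-499-3p (-0.21, SE 0.81), with means of 0.92, 0.35 and 1.10 RPM and no call. No order between the miRNAs of heart muscle and those of skeletal muscle could be read at this depth.

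As a check that needs no model, the paired differences of log2(RPM + 1) were tested over all 4096 flips of their signs, 2-sided, where the smallest p that 12 rats allow is 0.000488. The mean differences were 1.28 for miR-133a-3p (exact permutation p = 0.000977), 1.59 for miR-1b (exact permutation p = 0.00195), 1.3 for miR-133b-3p (exact permutation p = 0.00293) and 1.48 for miR-1-3p (exact permutation p = 0.00342). These p-values are not adjusted and belong to miRNAs already picked by the edgeR fit.

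The summed level of the 9 muscle miRNAs was higher at week 4 than at week 1 in all 12 rats. It ranged from 376 to 2598 RPM at week 1 (median 1357 RPM) and from 1039 to 10041 RPM at week 4 (median 2086 RPM). miR-133a-3p made up 92.8% of this sum, so the sum mostly restates that 1 miRNA. At the median, the sum was 0.136% of all miRNA reads at week 1 and 0.209% at week 4. For context, its median was 1468 RPM at baseline, with a range from 328 to 10045 RPM, and 2218 RPM at week 8, with a range from 897 to 8030 RPM. For miR-133a-3p the spread at baseline, 304 to 9574 RPM, was wider than at week 1 or week 4. For miR-1b the median was 36.6 RPM at baseline and 38.7 RPM at week 8, so week 4 had the highest median of the 4 time points. For miR-1-3p the medians were 22.7 RPM at baseline and 20.9 RPM at week 8, while for miR-133b-3p they were 15.1 and 20.8 RPM. No test was made against baseline or week 8.

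The rises of near-identical miRNAs were not shown to be separate events, since the authors' mapping allowed mismatches and a read of one could be assigned to the other. Reads of miR-133b-3p were 0.515% to 2.01% of those of miR-133a-3p (median 1.2%). miR-1b had 1.0 to 5.67 times the reads of miR-1-3p (median 2.41, in the 23 samples with a read of miR-1-3p). When each pair was summed before the fit, a check added after seeing the data, miR-133a-3p with miR-133b-3p had a log2 fold change of 1.24 (adjusted p of 0.00125 in edgeR) and miR-1-3p with miR-1b had 1.5 (adjusted p of 0.00191). The miR-133 and miR-1 pairs then gave 2 calls in place of 4. Base composition differed widely among the called miRNAs, from 27.3% G and C in miR-1b to 54.5% in miR-133a-3p, against a median of 46.5% over the 278 miRNAs with a mean of at least 10 RPM and a sequence.

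The 4 calls depended on comparing each rat with itself. In the fit without the replicate block, which treats the weeks as unrelated samples, the log2 fold changes were 1.27 for miR-133a-3p, 1.63 for miR-1b, 1.31 for miR-133b-3p and 1.24 for miR-1-3p, and the adjusted p-values in edgeR were 0.108, 0.0504, 0.108 and 0.298, so no miRNA was called. miR-133a-3p and miR-1b were called with each of the 12 rats left out in turn. miR-133b-3p was called in 9 of these 12 fits and lost its call without rat 3, 5 or 21 (adjusted p of 0.0568, 0.0684 and 0.0932 in edgeR). miR-1-3p was called in 6 of the 12 and lost its call without rat 2, 3, 5, 16, 21 or 23 (adjusted p of 0.089, 0.0818, 0.118, 0.0553, 0.128 and 0.0635 in edgeR). Without both rats 17 and 21, which had the highest miR-133a-3p at week 4, 3 miRNAs were called and miR-133b-3p was not (adjusted p of 0.0988 in edgeR); this setting was added after seeing the data.

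**Figure D3:**
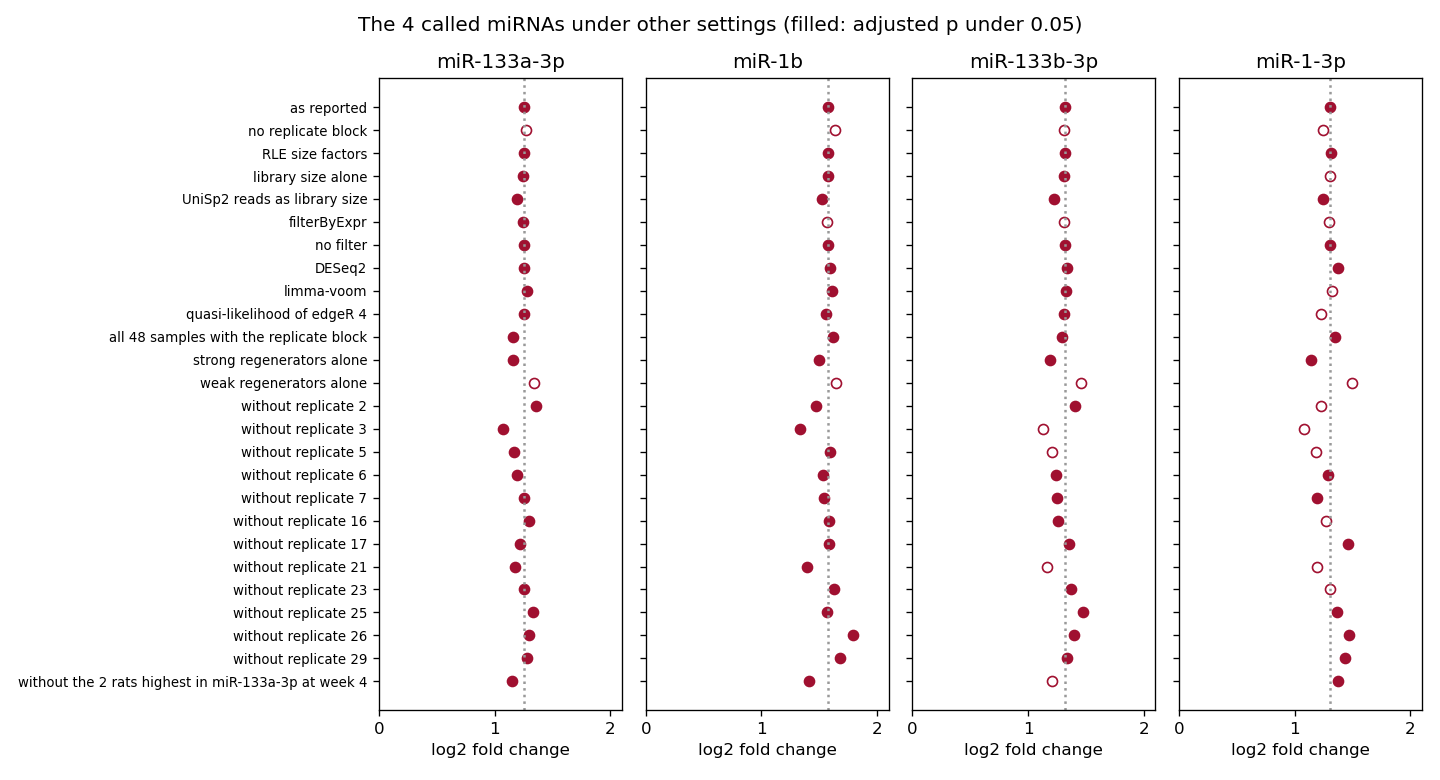
Log2 fold change of week 4 against week 1 (x axis) of the 4 called miRNAs under each setting of the fit (y axis), where "without replicate" and a number name the rat left out. Filled points have an adjusted p under 0.05, open points do not, and the dotted line is the value as reported; all points lie above 0, between 1.07 and 1.79, and none is filled without the replicate block or in weak regenerators alone.

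The second question was whether the change from week 1 to week 4 differed between strong and weak regenerators. No miRNA passed the test of that difference (0 of 619 in edgeR, 0.0%, smallest adjusted p of 1), and 9 had an unadjusted p under 0.05. The called myomiRs were higher at week 4 in at least 5 of the 6 rats of either group. The median of miR-133a-3p went from 1626 to 2732 RPM in strong and from 785 to 1906 RPM in weak regenerators, and it was higher at week 4 in 5 of 6 strong and 6 of 6 weak regenerators. The difference of its log2 fold changes, strong minus weak, was -0.10 (SE 0.39). For miR-1b this difference was -0.05 (SE 0.51), for miR-133b-3p -0.17 (SE 0.55) and for miR-1-3p -0.23 (SE 0.58). Fitted alone, the strong regenerators gave 4 calls and the weak regenerators 0, where miR-133a-3p had a log2 fold change of 1.16 in strong and 1.34 in weak regenerators.

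The 3 miRNAs of at least 10 RPM with the smallest unadjusted p for that difference in each direction did not pass it. miR-450a-5p, of the miR-322 cluster on the X chromosome, had a difference of 1.06 (SE 0.40). Its median went from 687 to 795 RPM in strong and from 1042 to 413 RPM in weak regenerators, and it was higher at week 4 in 2 of 6 strong and 1 of 6 weak regenerators. miR-455-3p, known from cartilage, had a difference of 0.79 (SE 0.28), with medians that went from 2108 to 1969 RPM in strong and from 2502 to 1378 RPM in weak regenerators. For miR-320-3p the difference was 0.66. In the other direction, miR-203a-3p of the epidermis had a difference of -0.83, miR-193a-3p -0.82 and miR-200a-3p, of the epithelial miR-200 family, -0.71. All 6 had an adjusted p of 1 in edgeR.

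No decrease passed the test, and the 5 with the smallest p among miRNAs of at least 10 RPM are given as values. miR-455-3p, which lies in an intron of a collagen gene and is known from cartilage, had a median of 2212 RPM at week 1 and 1522 RPM at week 4. It was lower at week 4 in 11 of 12 rats, with a log2 fold change of -0.49 (SE 0.15) and an adjusted p of 0.375 in edgeR. Its baseline median was 4477 RPM and its week 8 median 1441 RPM. miR-298-5p was lower in 10 of 12 rats, with medians of 144 and 97.6 RPM and a log2 fold change of -0.49 (SE 0.17). miR-450a-5p had medians of 827 and 489 RPM and a log2 fold change of -0.67 (SE 0.23). miR-145-5p, a miRNA of smooth muscle, had medians of 3045 and 2370 RPM and a log2 fold change of -0.54 (SE 0.19). miR-34b-5p, a target of p53, had medians of 36.5 and 22.9 RPM and a log2 fold change of -0.66 (SE 0.23). The adjusted p-values of the last 4 lay between 0.424 and 0.437 in edgeR, and the weeks overlapped for each of the 5.

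The other miRNA lists, 18 beside that of muscle, were read by counts and medians. For comparison, 157 of the 308 miRNAs of at least 10 RPM had a positive log2 fold change, and of the 619 tested, 5.01% were higher and 2.42% lower at an unadjusted p under 0.05. Nothing particular to a list was tested. The log2 fold changes named in this and the next paragraphs had adjusted p-values above 0.4 in edgeR, except where an earlier value is repeated. The vessel wall list had 6 of 6 members with a negative log2 fold change (median -0.47) and 3 lower at an unadjusted p under 0.05, beside 15 of all 619. The summed level of this list was higher at week 4 in 4 of 12 rats. At week 1 that sum had a median of 28503 RPM and a highest value of 97268 RPM. In the list, the smooth muscle miRNA miR-143-3p had -0.40 (SE 0.22) and the endothelial miRNA miR-126a-5p -0.10 (SE 0.12). The level of miR-143-3p at week 1 was at most 70072 RPM (median 10662 RPM), and its log2 fold change went from -0.55 to -0.20 with a rat left out. The other members of the list known from smooth muscle were miR-143-5p (-0.55), miR-145-5p (-0.54) and miR-145-3p (-0.57). The miR-322 cluster, whose hairpins lie close together on the X chromosome, had 12 of 12 members with a negative log2 fold change (median -0.26) and 3 lower at an unadjusted p under 0.05, again beside 15 of all 619. Its 2 most abundant members were miR-322-3p (-0.18, SE 0.13) and miR-450a-5p (-0.67). Cartilage had 3 of 4 members with a negative log2 fold change, with -0.14 (SE 0.12) for miR-140-3p and -0.18 (SE 0.14) for miR-455-5p beside miR-455-3p. Members of 1 cluster are made from 1 transcript, so they are not independent counts.

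The epithelium list had 7 of 8 members with a positive log2 fold change (median 0.36) and 4 higher at an unadjusted p under 0.05, beside 31 of all 619. Those 4 were miR-200a-3p (0.54, SE 0.19), miR-200b-3p (0.48), miR-200b-5p (0.48) and miR-141-3p (0.47). Its most abundant members, the skin miRNAs miR-203a-3p (0.23, SE 0.24) and miR-205 (-0.06, SE 0.28), were nearer to 0, and the summed level of the list was higher at week 4 in 5 of 12 rats. The miR-30 family list held 5p arms alone and had 5 of 5 positive (median 0.32), with 0.05 for miR-30a-5p and 0.31 for miR-30d-5p. The 3p arms tested, which are outside the list, went the other way. They had -0.18 (miR-30a-3p), -0.70 (miR-30b-3p), -0.45 (miR-30c-1-3p), -0.25 (miR-30c-2-3p), -0.41 (miR-30d-3p) and -0.18 (miR-30e-3p). Leukocytes had 8 of 11 positive (median 0.19), with 0.47 (SE 0.21) for the lymphocyte miRNA miR-150-5p and 0.08 (SE 0.13) for the myeloid miRNA miR-223-3p. The let-7 family, also listed by its 5p arms alone, had 7 of 9 positive (median 0.10), with 0.10 for let-7i-5p and 0.46 for let-7g-5p.

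**Figure D4:**
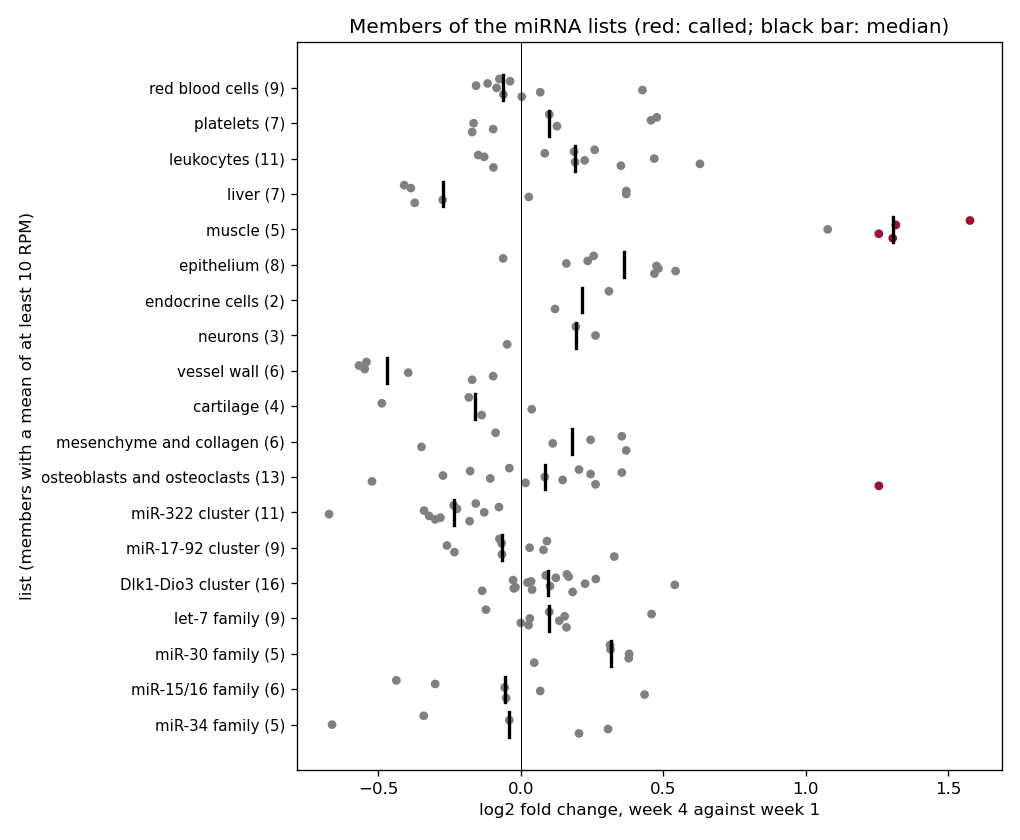
Log2 fold change of week 4 against week 1 (x axis) of the members of 19 miRNA lists (y axis, with the number of members of at least 10 RPM in parentheses), 1 point a miRNA. Red points passed the adjusted p of 0.05 and black bars are list medians; the muscle list, at a median of 1.3 for its 5 members, stands to the right of the others, and the red point among osteoblasts and osteoclasts is miR-133a-3p, which is in both lists.

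The lists of blood cells, liver, endocrine cells and neurons held no call. Red blood cells had 3 of 9 members with a positive log2 fold change (median -0.06), with 0.07 (SE 0.12) for miR-16-5p, -0.12 (SE 0.15) for miR-451-5p and -0.04 (SE 0.13) for miR-486. Platelets had 4 of 7 positive (median 0.10), with 0.13 (SE 0.11) for miR-191a-5p and 0.46 (SE 0.17) for miR-24-3p. The liver list had 3 of 7 positive (median -0.27). In it miR-122-5p, the main miRNA of hepatocytes, had -0.27 (SE 0.39), miR-192-5p 0.37 (SE 0.16), miR-802-5p -0.41 (SE 0.23) and miR-802-3p -0.39 (SE 0.31). Endocrine cells had 3 of 3 positive (median 0.16), with 0.12 (SE 0.14) for the islet miRNA miR-375-3p and 0.31 (SE 0.26) for miR-7a-5p. Neurons had 3 of 8 positive (median -0.22), with -0.05 for miR-128-3p and 0.26 for miR-138-5p.

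The lists tied to bone, stroma and growth held 1 call. Osteoblasts and osteoclasts had 9 of 16 members with a positive log2 fold change (median 0.05), and the 1 call among them was miR-133a-3p. Mesenchyme and collagen, which holds the collagen-repressing miR-29 family, had 6 of 9 positive (median 0.11), with 0.24 (SE 0.15) for miR-29a-3p and -0.09 (SE 0.13) for miR-29c-3p. The proliferation-linked miR-17-92 cluster had 4 of 11 positive (median -0.07), with -0.08 for miR-92a-3p and -0.07 for miR-19b-3p. The imprinted Dlk1-Dio3 cluster had 32 of 53 positive (median 0.04), with 0.17 for miR-434-3p and -0.14 for miR-136-3p. The miR-15/16 family had 2 of 6 positive (median -0.05), with -0.05 for miR-15a-5p. The miR-34 family, downstream of p53, had 3 of 6 positive (median -0.01), with 0.20 for miR-34a-5p and -0.04 for miR-34c-5p.

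Measures of the libraries did not pass a test between the weeks. A sample held from 421685 to 1586398 miRNA reads at week 1 (median 812038) and from 489502 to 1514610 at week 4 (median 964583). The number of miRNAs with a read had a median of 458.5 at week 1 and 468 at week 4. Reads of UniSp2, a synthetic RNA added at extraction, had medians of 39.4 and 41.8 per 1000 miRNA reads. The log2 ratio of miR-451-5p to miR-23a-3p, which rises when red blood cells burst during sampling, had medians of 2.74 and 2.55. The mean difference of this log2 ratio, week 4 minus week 1, was -0.118 (SD 0.652), and with miR-30c-5p in place of miR-23a-3p it was -0.504 (exact sign-flip permutation p = 0.149). The paired differences of these 4 measures had exact sign-flip permutation p-values from 0.535 to 0.648, and 0.648 each after adjustment over the 4. With UniSp2 reads as the library size, all 4 myomiRs were still called.

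The change of miR-133a-3p from week 1 to week 4 was also set against 5 other changes over the 12 rats, and no relation passed after adjustment over the 5. These changes share the reads of a sample, so they are not free of each other. Against the change in total miRNA count, Pearson's r was 0.266 (permutation p = 0.423, adjusted 0.528) and Spearman's rho was 0.573 (permutation p = 0.0566, adjusted 0.283). Without rats 2 and 25, the 2 farthest from the median on the x axis, that r was -0.0568. Against the change in UniSp2 reads per 1000 miRNA reads, r was 0.524 (permutation p = 0.0798, adjusted 0.2) and rho was 0.399 (permutation p = 0.201, adjusted 0.335), with r of 0.218 without rats 3 and 23. Against the ratio of miR-451-5p to miR-23a-3p, r was -0.0574 (permutation p = 0.906, adjusted 0.906) and rho was 0.014 (permutation p = 0.979, adjusted 0.979), with r of 0.0395 without rats 6 and 29. Against miR-1b, r was 0.623 (permutation p = 0.0503, adjusted 0.2) and rho was 0.28 (permutation p = 0.376, adjusted 0.469), with r of 0.151 without rats 3 and 26. Against miR-206-3p, r was 0.419 (permutation p = 0.213, adjusted 0.355) and rho was 0.455 (permutation p = 0.143, adjusted 0.335), with r of 0.491 without rats 3 and 7.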

How the data were processed

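Small RNA of plasma was sequenced after single-adapter ligation. The authors trimmed reads with cutadapt 3.3, mapped them with Bowtie 1.3.0 to a genome and to miRBase, and deposited unnormalized whole-number counts of 645 rat miRNAs and 3 spike-ins. The labels' processing notes name a human build (GRCh38.p12), whereas the study's methods name a rat genome. Counts of weeks 1 and 4 (421685 to 1586398 reads per sample) were fitted in R 4.3.3 with edgeR 4.0.16 by its older (version 3) quasi-likelihood method, with TMM size factors, a term for each rat and one for week, and a filter on mean abundance after the rule of DESeq2, which left all 619 miRNAs with a read. The SE of a log2 fold change in edgeR was derived from its test, as the absolute value divided by the square root of the F statistic. RPM are reads scaled to 1000000 miRNA reads. No molecular identifiers were counted, so depth gives counting error only.

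Weeks were paired by the animal in the labels. Deviations from group means had a mean correlation of 0.038 between samples of the same rat and -0.00905 between rats, and 5 of 12 rats exceeded 0.1. Sample pairs differed beyond sampling noise (chi-square per degree of freedom from 29.7 to 481 over 60 pairs), so none was counted once. Rats are separate animals.

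The miRNAs named were the called ones with a mean of at least 10 RPM that moved the same way in 10 or more of 12 rats, the 5 of smallest p in a direction with fewer than 5 calls, the called members of 19 lists or else their 2 most abundant members, the muscle list, 6 miRNAs the study shows, and 3 in each direction for the difference between strong and weak regenerators. Members of lists named for an unadjusted p, and those of smooth muscle, were chosen after their values were seen. So were the arms of muscle and miR-30 hairpins named from outside the lists. The comparison, the rule and the lists were chosen with earlier results of these data known. Of 206 list entries, 199 were in the counts. Alternatives were no replicate block, other size factors, UniSp2 scaling, other filters, DESeq2 1.42.0, limma-voom (limma 3.58.1), the quasi-likelihood method of edgeR 4, all 48 samples, each regeneration group alone, a fold of more than 2, and each rat left out. Another 3, the summed near-identical miRNAs, the exact sign flips and the fit without rats 17 and 21, were chosen after seeing the data. Exact tests used Python 3.11.15 with scipy 1.17.1. Fits were also run on simulated counts, whose fixed dispersion and larger number of changed miRNAs differ from these data. The outcome is not given, and no result here rests on it.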

Additional observations from a re-analysis of the deposited data

Results flagged for a closer look

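In groups of 6 samples, 4 of the 108 sets of values tested had a lowest or highest sample that stood apart by Dixon's test, which chance gives in about 1 of 20. The sets did not cover every named miRNA in every group. On the scale of log2(RPM + 1), miR-34b-5p was 3.67 in rat 23, the lowest of the strong regenerators at week 1, where the next value was 4.91. miR-320-3p was 13.1 in rat 2, the lowest of the same samples, where the next value was 13.6. miR-133a-5p was 0.0 in rat 6, which had no read of it, the lowest of the weak regenerators at week 1, where the next value was 2.52. miR-486 was 17 in rat 7, the highest of the weak regenerators at week 1, where the next value was 16.5. None of these is among the 4 called miRNAs.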

How the results depend on the processing

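The count of miRNAs called higher at week 4 was 4 and stayed at 3 or 4 with RLE or library size, UniSp2 scaling, DESeq2, limma-voom, edgeR 4, all 48 samples, strong regenerators alone, or without rats 17 and 21. No filter and a fold of more than 2 also gave 4, but neither could change the count. The filter of the main fit had left all 619 miRNAs with a read, and each of the 4 called folds was above 2. The count was 0 with no replicate block in place of the paired fit, 1 with filterByExpr (296 tested) and 0 in weak regenerators alone (585 tested). It was 2 with near-identical miRNAs summed and 2 to 4 with a rat left out, with 2 without rat 3, 5 or 21. The call left with filterByExpr was miR-133a-3p, so miR-1b, miR-133b-3p and miR-1-3p lost theirs. miR-1-3p also lost its call with library size alone, limma-voom and edgeR 4. The cause was not tested, except that summing leaves fewer miRNAs. The replicate block changed no other call. The counts called lower, and differing between strong and weak regenerators, were 0 in edgeR and under every alternative run. The 4 called log2 fold changes were positive under every setting. UniSp2 scaling moved the median of miRNAs of at least 10 RPM to -0.077, so directions of small changes depend on it.

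Signs that turned were all of uncalled miRNAs. They were miR-16-5p (-0.0116) and miR-30a-5p (-0.0275) with UniSp2 scaling, and miR-205 with no replicate block (0.50), limma-voom (0.0689), all 48 samples (0.0551) and weak regenerators alone (0.48). In weak regenerators alone they were also miR-122-5p (0.0156) and miR-136-3p (0.0676). In strong regenerators alone they were miR-451-5p (0.0619), miR-203a-3p (-0.21), miR-7a-5p (-0.11), miR-19b-3p (0.0038), miR-434-3p (-0.13), let-7i-5p (-0.0111), miR-15a-5p (0.0273), miR-320-3p (0.0369) and miR-193a-3p (-0.27). With each rat left out in turn, the ranges that crossed 0 were -0.0093 to 0.13 (miR-16-5p), -0.31 to 0.0629 (miR-205), -0.12 to 0.0308 (miR-128-3p), -0.0182 to 0.0874 (miR-30a-5p), -0.12 to 0.0095 (miR-15a-5p), -0.14 to 0.0366 (miR-34c-5p) and -0.14 to 0.0059 (miR-486). They were -0.00476 to 0.234 for the log2 difference of total counts and -0.36 to 9.18 for the plain difference in the number of miRNAs with a read, both negative without rat 7. The log2 difference of the ratio of miR-451-5p to miR-23a-3p went from -0.118 to -0.504 with miR-30c-5p as the reference, and passed no test with either. The cause was not tested.

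Depth limits miR-206-3p, miR-208a-3p, miR-208b-3p and miR-499-5p, with at most 41 reads in a sample. It also limits the calls of miR-1-3p, with at most 173 reads in a sample, and miR-133b-3p, with at most 126.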
